A study of Mus musculus with 6 samples.

Results

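Immunoglobulin heavy variable segments are the Ighv genes, the germline pieces that encode most of the antigen-binding part of an antibody heavy chain. Members were the rows of the deposited gene table whose symbol starts with Ighv and whose counts, summed over all 6 libraries, reached 10. There were 104 members among 183 Ighv rows and 50763 gene rows in all. The members were thus chosen by their summed count alone, so their presence is not a finding. The lowest summed counts inside the limit were 12.2 (Ighv1-86), 13.0 (Ighv1-13) and 14.45 (Ighv15-2), and the highest outside it were 9.43 (Ighv3-3), 8.67 (Ighv1-73) and 7.20 (Ighv1-30). Of the 79 rows left out, 66 were at 0 in every library, and those left out never held more than 0.145% of a library's Ighv counts.

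RNA came from mouse bone marrow cells sorted as CD34- KSL, a lineage-negative fraction that carries c-Kit and Sca-1 and is enriched for haematopoietic stem cells. All mice carried Tal1-tTA, a doxycycline-silenced activator driven from the Tal1 gene, and TRE-EGFR-tr, a transgene for an epidermal growth factor receptor without its cytoplasmic tyrosine kinase domain. The EGFR-DN group (3 libraries) had no doxycycline and made this truncated receptor beside the wild-type one, whereas the EGFR-WT group (3 libraries) drank doxycycline at 0.2 g/L and made the wild-type receptor alone. Doxycycline and the truncated receptor therefore cannot be told apart. The labels give no age, sex or strain, and nothing says that the libraries of a group came from separate animals, so spreads may be partly technical.

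A B cell precursor joins 1 V, 1 D and 1 J segment of the heavy chain locus, and its progeny keep that V segment. A large clone of antibody-secreting cells therefore adds counts to a single Ighv gene, while a mixed population spreads them over many. Stem cells have not rearranged the locus. Rearranged Ighv transcripts mark B lineage and plasma cells, and plasma cells hold far more immunoglobulin RNA per cell than B cells. Symbols give the subgroup first, so Ighv1-72 belongs to subgroup 1. The locus lies on chromosome 12.

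The last 290 bases of the second exon of each leading segment are shown here because this is the stretch by which reads are told apart between segments. The 6 segments are those that held at least 20% of the Ighv counts of a library while ranking first or second in it, leaving out Ighv1-9, which was outranked by Ighv3-6 and Ighv11-2 in the library where it was highest. They were read 5′ to 3′ on the coding strand from GENCODE M21 transcripts (GRCm38, minus strand of chromosome 12), and capitals mark the bases from the conserved cysteine codon to the end of the segment, the germline start of CDR3, the loop that varies most between antibodies.
Ighv11-2: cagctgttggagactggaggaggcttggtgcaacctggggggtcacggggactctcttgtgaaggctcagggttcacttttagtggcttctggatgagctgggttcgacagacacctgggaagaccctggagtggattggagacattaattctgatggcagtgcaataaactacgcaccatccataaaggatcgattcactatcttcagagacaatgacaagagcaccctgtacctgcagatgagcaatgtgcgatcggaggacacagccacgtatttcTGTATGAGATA
Ighv1-78: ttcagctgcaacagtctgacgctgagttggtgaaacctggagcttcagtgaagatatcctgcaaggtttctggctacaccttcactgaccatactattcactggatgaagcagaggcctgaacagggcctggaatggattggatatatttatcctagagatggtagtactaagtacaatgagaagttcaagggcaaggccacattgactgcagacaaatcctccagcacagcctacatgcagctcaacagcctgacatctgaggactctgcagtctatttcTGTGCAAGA
Ighv1-72: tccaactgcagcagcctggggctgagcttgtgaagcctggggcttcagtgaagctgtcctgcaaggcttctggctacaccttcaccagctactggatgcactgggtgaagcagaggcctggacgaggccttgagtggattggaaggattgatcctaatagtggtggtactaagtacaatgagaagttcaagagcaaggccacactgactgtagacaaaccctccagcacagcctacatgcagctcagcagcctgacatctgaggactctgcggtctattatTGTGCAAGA
Ighv5-12: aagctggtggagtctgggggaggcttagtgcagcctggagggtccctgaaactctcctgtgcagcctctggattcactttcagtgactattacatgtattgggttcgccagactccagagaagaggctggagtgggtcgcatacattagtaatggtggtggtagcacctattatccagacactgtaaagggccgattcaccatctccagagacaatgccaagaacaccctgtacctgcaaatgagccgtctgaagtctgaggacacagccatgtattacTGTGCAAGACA
Ighv3-6: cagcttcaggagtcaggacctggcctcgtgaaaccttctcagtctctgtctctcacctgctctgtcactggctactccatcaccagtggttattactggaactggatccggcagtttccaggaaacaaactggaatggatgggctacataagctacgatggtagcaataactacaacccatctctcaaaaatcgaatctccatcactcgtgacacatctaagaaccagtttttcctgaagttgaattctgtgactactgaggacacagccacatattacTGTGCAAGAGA
Ighv1-5: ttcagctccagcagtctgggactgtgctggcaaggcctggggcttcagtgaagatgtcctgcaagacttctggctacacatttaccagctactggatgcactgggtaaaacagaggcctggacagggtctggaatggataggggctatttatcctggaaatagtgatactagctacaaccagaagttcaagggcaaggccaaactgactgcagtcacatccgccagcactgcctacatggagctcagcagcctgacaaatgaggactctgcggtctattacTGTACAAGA

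The tail in capitals was the same 9 bases, TGTGCAAGA, in Ighv1-78 and Ighv1-72, and Ighv11-2 had TGTATGAGATA. Over the second exon, Ighv1-78 and Ighv1-72 were 86.2% identical, whereas Ighv11-2 was 75.6% identical to Ighv5-12 and between 59.0% and 61.6% identical to the other four. All 104 members had a GENCODE sequence of 345 to 394 bases, so counts of different segments can be compared with little effect of length. This was the coding part, or the whole transcript where no coding part was annotated. With reads of 75 bases, 37 members had no 75-base window that occurs identically in another such Ighv sequence. Ighv1-78, Ighv3-6, Ighv1-5, Ighv1-9 and Ighv6-3 were among these 37. Ighv11-2 shared 34.4% of its windows with Ighv11-1 alone, its relative at 98.9% identity. Ighv1-72 shared 74.0% of its windows, mainly with Ighv1-62-3 (99.1% identical), so the split of counts between this pair is uncertain. The members with no shared window held 33.4%, 55.1% and 14.99% of the Ighv counts in EGFR-DN replicates 1 to 3 and 32.2%, 56.8% and 52.5% in EGFR-WT replicates 1 to 3.

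Ighv transcripts were a small part of every library. Members summed to 14273, 36177 and 25868 counts in EGFR-DN replicates 1 to 3, or 0.0431%, 0.106% and 0.107% of all counts. They summed to 3466, 25841 and 20512 counts in EGFR-WT replicates 1 to 3, or 0.0116%, 0.0717% and 0.0840%. The groups overlapped, with means of 0.0855% ± 0.0367 for EGFR-DN libraries and 0.0557% ± 0.0388 for EGFR-WT libraries (SD, n = 3 each), and EGFR-WT replicate 1 was the lowest library. In bulk RNA, fewer Ighv-expressing cells and less Ighv RNA per cell cannot be told apart. The ratio to Ighm, the constant region gene of IgM, moved less. There were 22.2, 15.6 and 15.6 Ighv counts per 100 Ighm counts in EGFR-DN replicates 1 to 3, and 19.5, 16.3 and 16.2 in EGFR-WT replicates 1 to 3.

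Few segments held most of these counts in 5 of the 6 libraries. The fewest segments that together held 50% of the Ighv counts were 7, 3 and 3 in EGFR-DN replicates 1 to 3 and 4, 2 and 3 in EGFR-WT replicates 1 to 3. To reach 80% took 22, 17 and 13 segments in EGFR-DN and 12, 5 and 11 in EGFR-WT. EGFR-DN replicate 1 was the most even library and EGFR-WT replicate 2 the most concentrated. The effective number of segments (the inverse Simpson index, the number of equally abundant segments that would give the same concentration) was 19.1, 7.01 and 7.80 in EGFR-DN and 7.88, 5.36 and 8.0 in EGFR-WT. The group means were 11.3 ± 6.77 and 7.08 ± 1.49 (SD, n = 3 each), and the groups overlapped. The 3 leading segments of a library held between 30.0% (EGFR-DN replicate 1) and 73.5% (EGFR-WT replicate 2) of its Ighv counts.

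**Figure D1:**
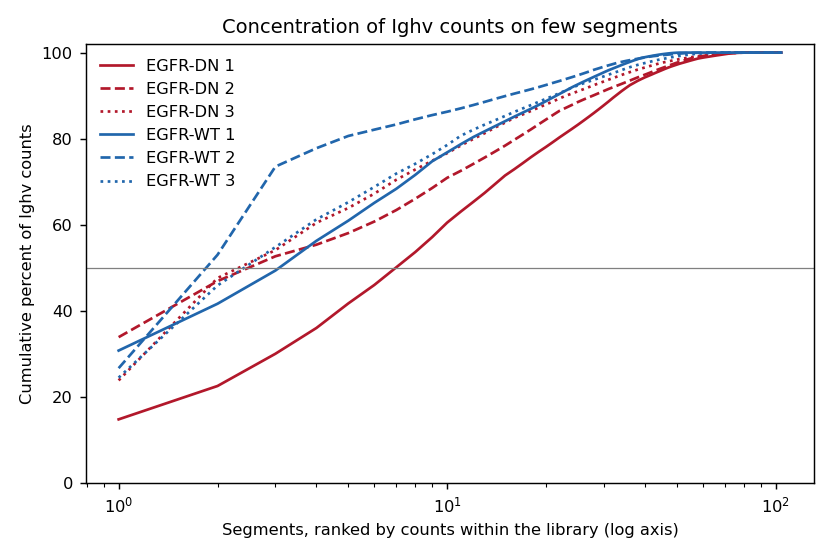
Cumulative percent of Ighv counts against the number of segments, ranked by counts within each library (log axis), for 3 EGFR-DN libraries in red and 3 EGFR-WT libraries in blue. The grey line marks 50%, which EGFR-WT replicate 2 reached with 2 segments and EGFR-DN replicate 1 with 7.

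The segment that led differed between libraries. EGFR-DN replicate 1 was led by Ighv11-2 with 14.8% of its Ighv counts (95% exact Clopper-Pearson interval 14.2% to 15.4%). EGFR-DN replicate 2 was led by Ighv1-78 with 33.9% (33.4% to 34.4%). EGFR-DN replicate 3 was led by Ighv1-72 with 23.9% (23.3% to 24.4%), with Ighv5-12 next at 23.8%. Ighv11-2 also led EGFR-WT replicate 1, at 30.8% (29.3% to 32.4%). EGFR-WT replicate 2 was led by Ighv3-6 with 26.7% (26.2% to 27.2%), with Ighv11-2 at 26.3% and Ighv1-9 at 20.5%. EGFR-WT replicate 3 was led by Ighv1-5 with 24.5% (23.9% to 25.1%), with Ighv11-2 next at 21.4%. These intervals and the limits below cover counting error only, because PCR copies are counted as if they were separate molecules. Of the 5 segments that led a library, 4 led a single library and Ighv11-2 led the other two. The leads of Ighv1-72 in EGFR-DN replicate 3 and Ighv3-6 in EGFR-WT replicate 2 were narrow. In each, the next segment lay inside the interval of the leader.

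**Figure D2:**
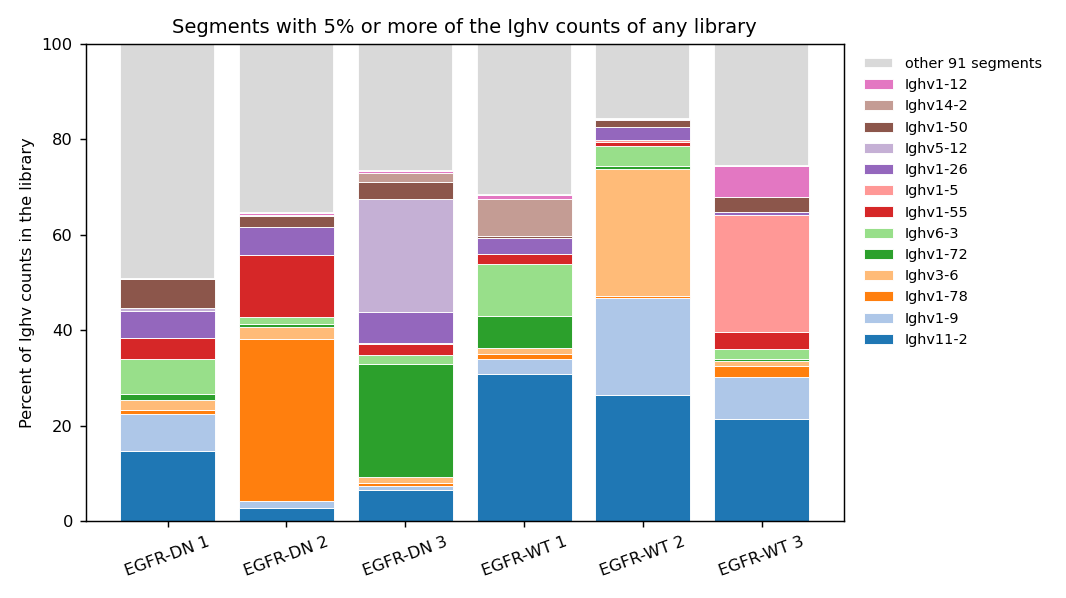
Stacked percent of Ighv counts per library for the 13 segments that held 5% or more in any library, with the other 91 segments in grey. Ighv11-2 is a visible block in every library, while Ighv1-78, Ighv5-12, Ighv3-6 and Ighv1-5 are large in 1 library each.

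Several leading segments were close to private. Ighv1-5 held 24.5% of Ighv counts in EGFR-WT replicate 3 (5025 counts), against 0%, 0% and 0.201% in EGFR-DN replicates 1 to 3 and 0% and 0.432% in EGFR-WT replicates 1 and 2. Its highest share was 56.7 times its next highest share. In EGFR-WT replicate 1, whose Ighv total is small, a count of 0 allows a share of up to 0.0866%. Ighv5-12 had 6152 counts in EGFR-DN replicate 3, with 94 and 0 counts in EGFR-DN replicates 1 and 2 and 0, 0 and 7 counts in EGFR-WT replicates 1 to 3. Its share of 23.8% was 36.2 times the next. Both segments were thus near or at 0 in most other libraries of either group.

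Other leading segments were present everywhere but large in 1 library. Ighv1-78 held 0.797%, 33.9% and 0.812% in EGFR-DN replicates 1 to 3 and 1.21%, 0.360% and 2.21% in EGFR-WT replicates 1 to 3. It exceeded its next highest share 15.3 times in EGFR-DN replicate 2. Ighv3-6 had 300, 966 and 285 counts in EGFR-DN replicates 1 to 3 and 37, 6898 and 193 in EGFR-WT replicates 1 to 3. Its share of 26.7% in EGFR-WT replicate 2 stood against 0.941% to 2.67% elsewhere. Ighv1-72 had 161, 242 and 6170 counts in EGFR-DN replicates 1 to 3 and 239, 130 and 88 in EGFR-WT replicates 1 to 3. Its second highest share, 6.91%, was in EGFR-WT replicate 1, so the segment was prominent in a library of each group. Its near-copy Ighv1-62-3 had 179 counts in EGFR-DN replicate 3 and at most 12 in any other library.

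Of the 13 segments that reached 5% of a library's Ighv counts, 8 did so in 1 library, 2 in 2 libraries (Ighv1-72 and Ighv6-3), 2 in 3 libraries (Ighv1-26 and Ighv1-9) and 1, Ighv11-2, in 5. At a limit of 1%, 43 segments were counted and 21 of them reached it in 1 library only. Ighv11-2 and Ighv6-3 reached 1% in all 6 libraries. Another 6 segments, Ighv1-26, Ighv1-50, Ighv1-53, Ighv1-55, Ighv1-9 and Ighv3-6, reached it in 5. Ighv6-3 had shares of 7.48%, 1.35% and 1.77% in EGFR-DN replicates 1 to 3 and 10.9%, 4.27% and 2.15% in EGFR-WT replicates 1 to 3. Ighv14-2 reached 7.71% in EGFR-WT replicate 1 and was at 0 in EGFR-DN replicate 1. Ighv1-12 reached 6.45% and Ighv5-4 reached 3.98%, both in EGFR-WT replicate 3. Ighv1-9 ran from 0.797% in EGFR-DN replicate 3 to 20.5% in EGFR-WT replicate 2.

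**Figure D3:**
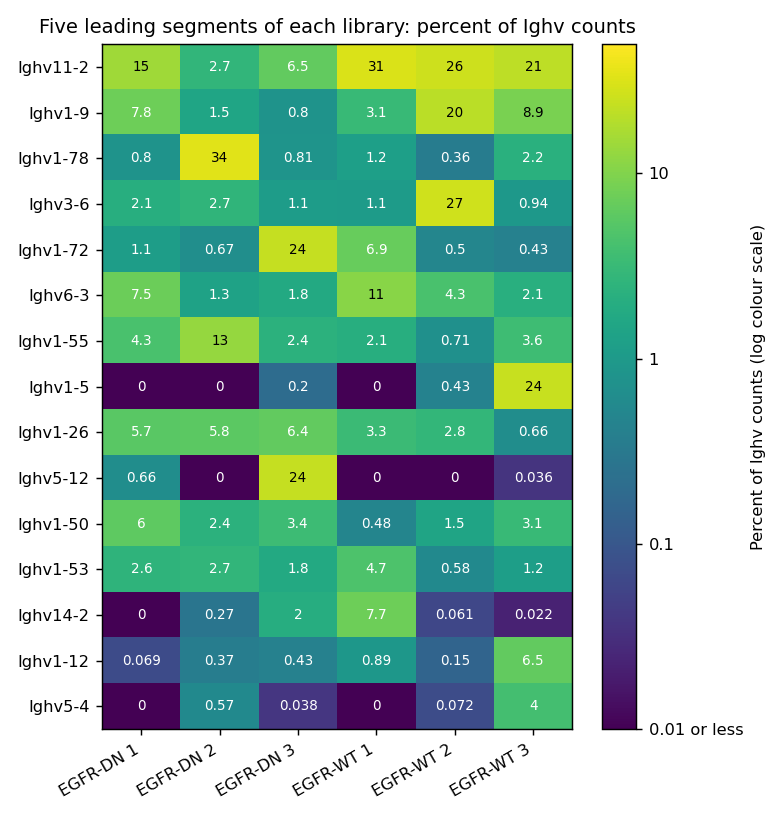
Percent of Ighv counts per library (columns) for the 15 segments that were among the 5 leading ones of any library (rows), on a log colour scale. Ighv11-2 is at 2.70% or more in all 6 libraries, whereas Ighv1-5 and Ighv5-12 are each at 0 in 3 libraries.

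Sharing was wider when the limit was lowered from a share of Ighv counts to a few counts. With detection set at 10 counts, 23 of the 104 segments were detected in all 6 libraries, 9 in 5, 15 in 4, 22 in 3, 17 in 2, 17 in 1 and 1 in none. The 23 segments detected everywhere held 67.7%, 75.9% and 53.7% of Ighv counts in EGFR-DN replicates 1 to 3 and 77.7%, 87.5% and 48.95% in EGFR-WT replicates 1 to 3. The 17 segments detected in 1 library held at most 2.15% of any library's Ighv counts. Segments detected in all 6 libraries still varied widely. The steadiest were Ighv1-64, whose highest share was 4.07 times its lowest, Ighv9-3 (4.32 times), Ighv6-6 (4.52 times), Ighv1-83 (6.32 times) and Ighv1-77 (6.86 times). Ighv1-78 varied 94.3 times.

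More segments were detected in each EGFR-DN library (69, 72 and 69) than in any EGFR-WT library (39, 53 and 58). The number detected depends on the Ighv total. Expected at the 3466 Ighv counts of EGFR-WT replicate 1, the numbers were 46.1, 44.0 and 37.7 in EGFR-DN and 39.0, 31.7 and 36.2 in EGFR-WT, and the groups overlapped. For the same reason, the 26 segments detected only in EGFR-DN libraries and the 5 detected only in EGFR-WT libraries depend on depth. Ighv1-34, Ighv1-62-1, Ighv1-71 and Ighv2-5 were detected in all EGFR-DN and no EGFR-WT libraries. Ighv11-1 was the 1 segment detected in all EGFR-WT and no EGFR-DN libraries, at 23, 34 and 11 counts against 10, 0 and 0. Its EGFR-DN replicate 1 value is just under the limit before rounding, and it was named after its values were seen.

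Pairs of libraries shared between 24.2% and 48.2% of their Ighv counts, taking for each segment the smaller of its shares. The 3 pairs within EGFR-DN shared 36.4% to 41.0%, the 3 pairs within EGFR-WT 41.1% to 45.2%, and the 9 pairs between groups 24.2% to 48.2%. The pairs share libraries and were not tested. Libraries of the same group thus did not stand outside the range seen between groups, but this rested on EGFR-DN replicate 1. Its pairs with EGFR-WT libraries shared 44.3% to 48.2%. The remaining pairs between groups shared 24.2% to 34.8%, below every pair within a group. The highest value was between EGFR-DN replicate 1 and EGFR-WT replicate 1, and the lowest between EGFR-DN replicate 2 and EGFR-WT replicate 2. The overlap within EGFR-WT rested on Ighv11-2. Without that segment it fell to a mean of 27.8%, while the mean within EGFR-DN was 36.9% and between groups 32.8%. Any pair had between 4 and 7 of its 10 leading segments in common.

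**Figure D4:**
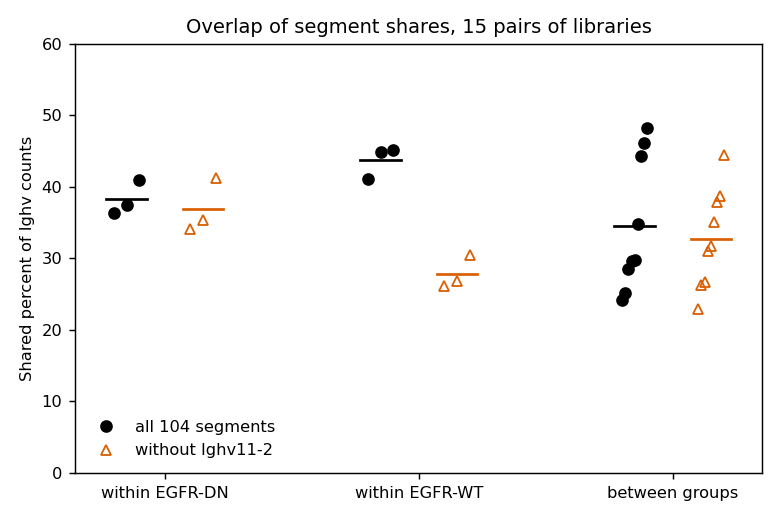
Shared percent of Ighv counts for the 15 pairs of libraries, by kind of pair. Filled circles use all 104 segments, open triangles leave out Ighv11-2, and bars are means. The 3 EGFR-WT pairs drop from 41.1% to 45.2% to 30.5% or less without Ighv11-2.

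Ighv11-2 is known as a segment of B-1 cells, an innate-like B cell class, which pair it with the kappa segment Igkv14-126 in antibodies against phosphatidylcholine. It had 2113, 975 and 1675 counts in EGFR-DN replicates 1 to 3 and 1067, 6808 and 4393 in EGFR-WT replicates 1 to 3. As a share of Ighv counts it was at 14.8%, 2.70% and 6.47% in EGFR-DN and 30.8%, 26.3% and 21.4% in EGFR-WT. All EGFR-WT libraries were above all EGFR-DN libraries. The mean share was 7.99% ± 6.2 against 26.2% ± 4.69 (SD, n = 3 each), lower by 18.2 percentage points, with an exact two-sided permutation p = 0.10, the smallest that 3 against 3 libraries can give. The segment was singled out after its values were seen. Any segment whose groups do not overlap gives this p, so the p is no support for a group difference. It was the 1 segment of 104 whose share was lower in every EGFR-DN library (0.962% of members), and 10 were higher in every EGFR-DN library (9.62%). In CPM (counts scaled to a common library total) the groups overlapped, at 63.9, 28.5 and 69.6 in EGFR-DN and 35.6, 189 and 180 in EGFR-WT. The log2 fold change of the level (EGFR-DN minus EGFR-WT) was −1.16 (SE 0.65, edgeR adjusted p = 0.690), and did not pass.

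The partner segments followed the same order of libraries in part. Igkv14-126 took 9.43%, 1.19% and 2.53% of kappa variable counts in EGFR-DN replicates 1 to 3 and 23.4%, 14.3% and 13.4% in EGFR-WT replicates 1 to 3. From highest to lowest share, the 6 libraries stood in the same order for Igkv14-126 as for Ighv11-2. In counts the 2 orders differed. Igkv14-126 had 4262, 1952 and 1530 counts in EGFR-DN replicates 1 to 3 and 2595, 14847 and 9459 in EGFR-WT replicates 1 to 3, and the groups overlapped. Ighj1, a joining segment, took 48.6%, 14.8% and 19.3% of the counts of Ighj1 to Ighj4 in EGFR-DN replicates 1 to 3 and 43.6%, 53.7% and 29.4% in EGFR-WT replicates 1 to 3. The groups overlapped. Ighj3 took 10.2%, 39.2% and 42.1% in EGFR-DN replicates 1 to 3, leading in replicates 2 and 3, and 5.54% to 6.91% in EGFR-WT. In CPM the groups overlapped for Ighj3, at 4.89 in EGFR-DN replicate 1 and 6.01 in EGFR-WT replicate 3. Ighj2 took 16.4% to 35.9% in EGFR-DN and 6.25% to 14.7% in EGFR-WT. Ighj4 led in EGFR-WT replicate 3 with 55.4%. Shares of Ighj1 to Ighj4 depend on each other and were not tested. Among kappa segments, Igkv12-46, chosen after its values were seen, took 11.7%, 1.22% and 34.0% in EGFR-DN replicates 1 to 3 and 0.164%, 56.6% and 0.153% in EGFR-WT replicates 1 to 3.

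**Figure D5:**
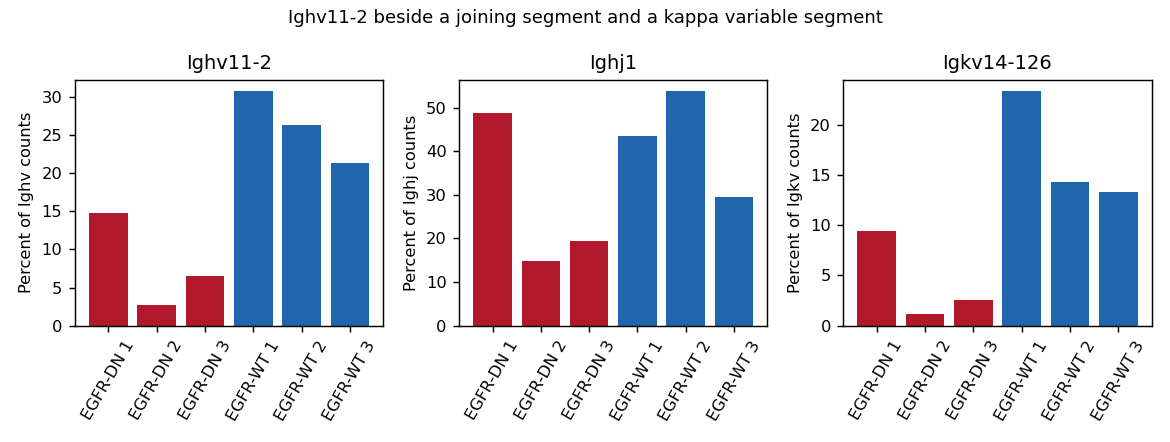
Percent of Ighv counts in Ighv11-2, of Ighj1 to Ighj4 counts in Ighj1, and of Igkv counts in Igkv14-126, 1 bar per library, EGFR-DN in red and EGFR-WT in blue. EGFR-WT replicate 1 is highest and EGFR-DN replicate 2 lowest for both Ighv11-2 and Igkv14-126.

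By subgroup, Ighv1, the largest with 59 members, held 48.8%, 77.3% and 49.1% of Ighv counts in EGFR-DN replicates 1 to 3 and 40.5%, 35.0% and 63.5% in EGFR-WT replicates 1 to 3. The groups overlapped. Subgroup 11, with 2 members, was nearly all Ighv11-2. Subgroup 5 reached 30.2% in EGFR-DN replicate 3 through Ighv5-12, against at most 7.77% elsewhere, and subgroup 3 reached 26.9% in EGFR-WT replicate 2 through Ighv3-6, against at most 2.72% elsewhere. Single segments therefore set the subgroup shares that stood out.

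In the order of the 183 Ighv genes along the locus (RefSeq, GRCm38.p6), counted from the end next to the D segments, Ighv5-12 was at place 18, Ighv11-2 at 42, Ighv3-6 at 59, Ighv1-5 at 79, Ighv1-72 at 165 and Ighv1-78 at 175. Leading segments thus came from both ends. The 61 places nearest the D segments held between 16.5% (EGFR-DN replicate 2) and 58.7% (EGFR-WT replicate 2) of Ighv counts, and the 61 farthest between 9.66% (EGFR-WT replicate 2) and 69.9% (EGFR-DN replicate 2). RefSeq marks 11 of the 104 members as pseudogenes, out of 63 such rows in the table. They held 2.05%, 5.22% and 1.64% of Ighv counts in EGFR-DN replicates 1 to 3 and 1.80%, 0.232% and 1.27% in EGFR-WT replicates 1 to 3. Ighv1-62 was the most abundant of them, at 969 counts in EGFR-DN replicate 2 and at most 144 in any other library. It is 96.9% identical to Ighv1-55, which had 4712 counts in EGFR-DN replicate 2, and shares 75-base windows with 6 segments, Ighv1-55 among them.

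The level of each segment was then compared between groups with edgeR on all genes. The filter on low counts kept 69 members, and the other 35 were not tested. None of the 69 passed an adjusted p of 0.05, where 1 of 19313 genes (0.00518%) did. At an unadjusted p under 0.05, 13 members were higher (4.3% of all genes were) and 2, Ighv1-5 and Ighv11-1, were lower (2.4% of all genes). In scaled CPM, 12 lay above all EGFR-WT libraries in every EGFR-DN library (9.21% of all genes) and 1 below (8.72%). The median log2 fold change was 1.41 over the 69 and 0.01 over all genes. These counts are no support for a group difference, because a segment could pass the filter through the one group in which it was high. DESeq2 called 8 of the 81 members to which it gave an adjusted p, all of them higher in EGFR-DN, where 72 of 22925 genes (0.314%) were called higher. The 8 were Ighv1-21, Ighv1-26, Ighv1-34, Ighv1-53, Ighv10-3, Ighv2-5, Ighv5-2 and Ighv9-3. Among them, Ighv1-21, Ighv1-34, Ighv2-5 and Ighv5-2 were at 0 in every EGFR-WT library. EGFR-DN counts were only 11, 18 and 5 for Ighv1-21 and 25, 8 and 6 for Ighv5-2. Members could reach the summed count through 1 group alone, so these calls are no support either. The edgeR test called 1 of 77 tested members when EGFR-DN replicate 3 was left out, the library with rRNA-like genes at 25.4% of its counts against 4.71% to 6.15% elsewhere. That 1 was Ighv1-34 (adjusted p = 0.0450), and calls over all genes also rose in that setting, with 46 of 19919 genes (0.231%) called higher. DESeq2 without that library called 3 of 62 members, Ighv1-34, Ighv1-52 and Ighv1-74, where 474 of 16999 genes (2.79%) were called higher. The calls without that library are no support for a group difference for the same reason.

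Ighv1-34 had the smallest p. It had 46, 76 and 52 counts in EGFR-DN replicates 1 to 3 and 0 in each EGFR-WT library. Against a floor of 3 counts per EGFR-WT library it was at least 20.96-fold higher (edgeR adjusted p = 0.524). It shares 16.2% of its 75-base windows with other segments, Ighv1-26 among them. Ighv1-26 held 5.70%, 5.76% and 6.36% of Ighv counts in EGFR-DN replicates 1 to 3 and 3.27%, 2.84% and 0.660% in EGFR-WT replicates 1 to 3. The log2 fold change of its level was 2.54 (SE 0.73, edgeR adjusted p = 0.690), and its groups did not overlap. Ighv1-71 had 12, 399 and 12 counts in EGFR-DN replicates 1 to 3 and 0 in each EGFR-WT library, and shares 97.2% of its windows with Ighv1-62-2. That near-copy had 21 counts in EGFR-WT replicate 3 and 0 in every other library, so the 0 of Ighv1-71 there depends on how reads of the pair were assigned.

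Ighv9-3 had 320, 514 and 393 counts in EGFR-DN replicates 1 to 3 and 57, 134 and 157 in EGFR-WT replicates 1 to 3, with a log2 fold change of 1.92 (SE 0.48). Ighv1-53 had 364, 974 and 456 counts against 162, 149 and 245 (1.71, SE 0.46). Ighv10-3 had 482, 103 and 94 counts against 39, 21 and 45 (2.62, SE 0.69). Each had an edgeR adjusted p of 0.690 and did not pass, although the groups did not overlap in scaled CPM.

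Genes of antibody-secreting cells were present beside the Ighv counts. All 12 plasma cell markers were at 10 counts or more in every library, and 11 of the 12 were lowest in EGFR-WT replicate 1. Jchain, which links IgM and IgA subunits, was at 1126, 3416 and 822 CPM in EGFR-DN replicates 1 to 3 and 298, 1648 and 1690 CPM in EGFR-WT replicates 1 to 3. Sdc1, the plasma cell surface proteoglycan CD138, was at 22.0, 45.8 and 19.7 CPM against 8.24, 21.3 and 23.8 CPM. The summed plasma cell list ran from 1503 to 4183 CPM in EGFR-DN and from 641 to 2241 CPM in EGFR-WT, and its part in the Ighv values was not tested. Most of that sum came from Jchain, Xbp1 (152 to 347 CPM) and Txndc5 (142 to 256 CPM) in every library. Prdm1 was at 1.03 to 13.0 CPM and Irf4 at 0.534 to 17.7 CPM. Markers of mature B cells differed among themselves. Cd79a was at 2.13 to 15.1 CPM and Fcrla at 1.43 to 7.90 CPM, close to the ranges of Prdm1 and Irf4. Others were lower. Ms4a1 (CD20) was at 0.233 to 2.63 CPM, Pax5 had 0 to 5 counts, and Ighd, the IgD constant gene of naive B cells, 0 to 5 counts. The summed B cell list was at 47.9 to 77.3 CPM in EGFR-DN and 40.4 to 54.1 CPM in EGFR-WT, of which Cd79b, a part of the B cell receptor, made up 17.5 to 40.8 CPM. Genes of pro-B and pre-B cells differed among themselves. Igll1, a surrogate light chain gene, had 0 to 19 counts and Bst1 0 to 9, whereas Dntt, the enzyme that adds bases at V(D)J joints, had 1747 to 17452 counts, Rag2 104 to 311 and Il7r 110 to 367.

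Among constant genes, Ighm was the most abundant in each library, at 1939, 6792 and 6901 CPM in EGFR-DN and 592, 4406 and 5173 CPM in EGFR-WT. Igha, the IgA gene, was at 1011, 1100 and 706 CPM against 156, 315 and 440 CPM. The 10 stem cell markers were at 10 counts or more in all libraries, with summed levels of 1492 to 3227 CPM in EGFR-DN and 1975 to 2375 CPM in EGFR-WT. The summed level in EGFR-DN and EGFR-WT was 185 to 672 and 252 to 338 CPM for pro-B and pre-B genes, 17.6 to 38.7 and 24.6 to 43.6 CPM for T and NK genes, and 1018 to 1233 and 623 to 781 CPM for myeloid genes. It was 29.1 to 51.3 and 20.3 to 35.2 CPM for erythroid genes, and 119 to 254 and 228 to 245 CPM for plasmacytoid dendritic genes. Most of the pro-B and pre-B sum came from Dntt (72.6 to 528 CPM) and Erg (95.5 to 158 CPM) in every library. Igll1 reached at most 0.527 CPM and Bst1 at most 0.272 CPM, so the sum is no measure of pro-B and pre-B cells. The V(D)J recombination list summed to 501 to 1335 CPM in EGFR-DN and 886 to 936 CPM in EGFR-WT, with 0 of 12 members past the edgeR threshold. Summed heavy chain constant genes ran from 2987 to 7972 CPM in EGFR-DN and from 771 to 5728 CPM in EGFR-WT, light chain constant genes from 1808 to 6169 and from 491 to 3501 CPM, and joining segments from 47.8 to 112.4 and from 15.8 to 87.0 CPM. None of the tested members of the 12 lists passed the threshold.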

How the data were processed

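RNA from 6 libraries of sorted mouse marrow cells was made into cDNA from 10 ng of input with oligo(dT) priming and read as single reads of 75 bases, per the labels' protocols. The authors deposited a table of estimated counts with no scaling of libraries, in which 79.4% of the values were whole. Tools named in the submitters' processing notes are DRAGEN, R 4.3.1 and DESeq2 1.40.2, with the build mm39. The labels do not say how reads shared by several segments were assigned, or which annotation and strand option were used. Total counts ranged from 24073204 to 36032504. No 2 libraries were duplicates (smallest chi-square per degree of freedom 16.3). No column belonged to other samples (0 columns).

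Shares are a segment's counts divided by the summed counts of the 104 members in that library. The counts were rounded for the tests, since the design had assumed whole counts. All genes passing filterByExpr (19313) were fitted with edgeR 4.0.16 in R 4.3.3 (TMM scaling, two-sided quasi-likelihood test, Benjamini-Hochberg adjustment over all genes), after a test on simulated counts. DESeq2 1.42.0 was an alternative, as were other scalings and filters, a replicate block, each library left out, and other limits for the shares. Standard errors were derived from the log2 fold change and the F statistic.

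Sequences came from GENCODE M21 and gene order from RefSeq, both of GRCm38 and matched by symbol (104 of 104), so no coordinates are printed. Shared windows were counted on these reference sequences, and the mice may differ from them. Named segments were the 5 leading ones of each library, those with 5% of any library, the 6 with the smallest edgeR p, those nearest the count limit, and the 5 steadiest. The members and lists were chosen with earlier results of these data known. Of the fixed lists' genes, Vpreb1 and Vpreb2 were not used here.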

Additional observations from a re-analysis of the deposited data

How the results depend on the processing

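Of 83 alternatives to the summary values, 65 stayed near the value reported. Near meant within 1 SD of the libraries or pairs, within a set ratio for numbers of detected segments, or an equal number of calls. Leaving out 1 of 3 libraries cannot move a mean of libraries by more than 1 SD. The Ighv percent of all counts therefore stayed near in those alternatives by construction, and the 65 is no measure of stability. The number of segments called was 0 with edgeR and under each other scaling and filter, 8 with the DESeq2 Wald test (0.314% of all genes were called higher), and 3 with DESeq2 without EGFR-DN replicate 3 (2.79% of all genes), an alternative added after seeing the data. Leaving out 1 library gave 0 to 1 calls, the 1 being without EGFR-DN replicate 3. Calls under any setting are no support for a group difference, because segments could become members through 1 group alone. The directions of 7 single segments were kept in all 103 alternatives, among them Ighv11-2, whose level ran from −1.63 to −0.84 (log2) with an adjusted p of at least 0.376. These 7 were the 6 segments with the smallest edgeR p and Ighv11-2, all chosen from these same data. Ighv1-34 and Ighv1-71 were at 0 in every EGFR-WT library, so their direction could not change. The kept directions are therefore no support for a group difference. The same-numbered libraries were treated as unpaired, and the replicate block also gave 0 calls. Correlations of their deviations were −0.02, 0.05 and 0.06, which cannot show whether they were paired. Depth limits detection. At the smallest Ighv total the expected mean was 42.6 segments in EGFR-DN, and 12.3 segments were expected in all 6 libraries. Detection at 50 counts gave a mean of 28.3 in EGFR-WT and 8 segments in all 6. Mean overlap of library pairs within EGFR-DN, within EGFR-WT and between groups was 38.3%, 43.8% and 34.5%, and became 67.9%, 69.9% and 63.5% with segments summed by subgroup and 60.2%, 52.8% and 54.5% as Bray-Curtis similarity of square-root shares. Added after seeing the data, leaving out the 3 leading segments of every library gave 53.6% within EGFR-DN, 31.4% within EGFR-WT and 42.3% between groups. Leaving out Ighv11-2, added likewise, gave 36.9%, 27.8% and 32.8%. In both, pairs within EGFR-WT shared less on average than pairs between groups. Leaving out 1 library gave 36.4% to 41.0% within EGFR-DN, 41.1% to 45.2% within EGFR-WT and 28.7% to 38.0% between groups. Merging segments at least 97% identical, also added, moved the segments to 50%, the top share, the effective number and the pair overlaps by less than their spread, and was not run for other values.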
